A study of Mus musculus with 7 samples.

Results

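The genes of Wnt signalling between cells were followed across 7 mouse RNA sequencing libraries. They are the Wnt ligands, their frizzled and Lrp receptors, the R-spondins with their Lgr receptors, the secreted inhibitors, and the feedback inhibitor Axin2. Members were chosen by symbol alone: Wnt, Fzd, Lrp5 and Lrp6, Sfrp1 to Sfrp5, Dkk1 to Dkk4, Rspo1 to Rspo4, Lgr4 to Lgr6, Axin2, Wif1 and Frzb. 49 of the 27179 genes in the table matched, namely 19 ligands, 10 frizzled receptors, 2 co-receptors, 4 R-spondins, 3 Lgr receptors, 6 secreted Wnt binders, 4 Dickkopf genes and Axin2.

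Wnt proteins are secreted, lipid-modified ligands that bind frizzled receptors together with the co-receptor Lrp5 or Lrp6, which stabilises beta-catenin, or together with other co-receptors, which steers cell polarity and movement. R-spondins bind Lgr receptors and thereby keep frizzled receptors at the cell surface, whereas Sfrp proteins, Frzb and Wif1 hold Wnt proteins outside the cell and Dickkopf proteins occupy the Lrp co-receptors. Wnt signals help to induce the neural crest in the embryo, the cell population that later gives rise to the neurons and glia of the gut and to Schwann cells, and in the gut wall the cells around the crypts supply Wnt proteins and R-spondins to the epithelium.

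The libraries came from mice carrying Wnt1-Cre and the R26R-tdT reporter, called Wnt1-tdT mice, in which cells descended from the neural crest carry the red fluorescent protein tdTomato. All 7 groups share both alleles, the sorted tdTomato-negative cells included, and the Cre is driven by the promoter of Wnt1, which is itself one of the 49 genes. A cell that never was neural crest but used this promoter would be labelled as well. Each group is 1 library, made from about 50000 cells pooled from 3 mice aged 1 month, 2 female and 1 male.

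2 groups were sorted tdTomato-positive cells that were not cultured, here called primary cells: those of the posterior subcutaneous fat pads and those of the muscle and myenteric plexus layer of the small bowel. The other 5 groups were grown in a neural proliferation medium with 20 ng/mL basic fibroblast growth factor, 20 ng/mL epidermal growth factor and heparin. Bowel M1 neurospheres came from tdTomato-positive cells sorted first and then cultured for 10 days. Unsorted bowel cells grown for 10 days as mixed spheroids were sorted into positive and negative spheroid cells. Bowel M2 neurospheres came from such positive cells after a further 10 days, and adipose neurospheres were made from fat in the same 2 stages.

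Levels are given as CPM, reads scaled by the total assigned to genes, and library totals lay between 51885106 and 65301500 reads. With 1 library per group there is no replicate check of any difference, and no test was made. A gene counts as measured where one of both libraries reaches 1 CPM. It was called higher or lower where the log2 ratio of scaled reads was at least 4-fold and its 95% counting interval lay wholly beyond 2-fold. Intervals cover counting error only and not variation between pools of mice, which 1 library per group cannot show. They treat reads as independent, and amplified reads were not collapsed to molecules, so even the counting error may be understated.

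Markers of the labelled cells were checked. Sox10, a transcription factor of crest cells and glia, had between 98.0 and 899.6 CPM in the 6 tdTomato-positive libraries and 5.23 CPM in the negative spheroid cells. The 6 crest and glia markers summed to between 866 and 3534 CPM in positive libraries and to 18.5 CPM in negative cells. Other cell types were also present: primary bowel cells held 36975 CPM of 5 pancreatic acinar markers, 24364 CPM of 6 smooth muscle markers and 1319 CPM of 5 mesothelial markers, and primary adipose cells held 1649 CPM of 5 lymphocyte and dendritic markers. In the cultured libraries these 4 sums were at most 3.80, 198, 65.0 and 48.9 CPM. The 5 macrophage markers summed to 3875 CPM in primary bowel, 1548 CPM in primary adipose and 1330 CPM in M1 cells, and to at most 109 CPM in the 4 others. Lyz2 made up most of the sum in primary bowel (2843 CPM), primary adipose (1163 CPM) and M1 cells (1213 CPM). Each of the other macrophage markers was lower in M1 than in primary adipose cells. The 4 endothelial markers summed to 123 and 98.7 CPM in primary adipose and bowel cells and to between 0.812 and 23.5 CPM in culture. In bulk libraries, fewer cells of a type and less RNA per cell cannot be told apart.

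41 of the 49 genes reached 1 CPM in a library, 26 reached 10 CPM, and 14 stood at 1 CPM or more in all 7 libraries. The 8 that stayed under 1 CPM throughout were Dkk4 and 7 ligands, Wnt1, Wnt3, Wnt3a, Wnt7a, Wnt8a, Wnt8b and Wnt9b. Wnt9b, which overlaps Wnt3 on chromosome 11, had 0 reads in every library. Wnt1, whose promoter drives the Cre, had 0.609 CPM in primary adipose cells, 0.124 CPM in negative spheroid cells and 0.0155 CPM in positive spheroid cells, with 0 reads in the other 4 libraries. The number of members at 1 CPM or more was 34 in primary bowel cells and 30 in primary adipose cells, and it was 20 in M2 neurospheres.

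**Figure D1:**
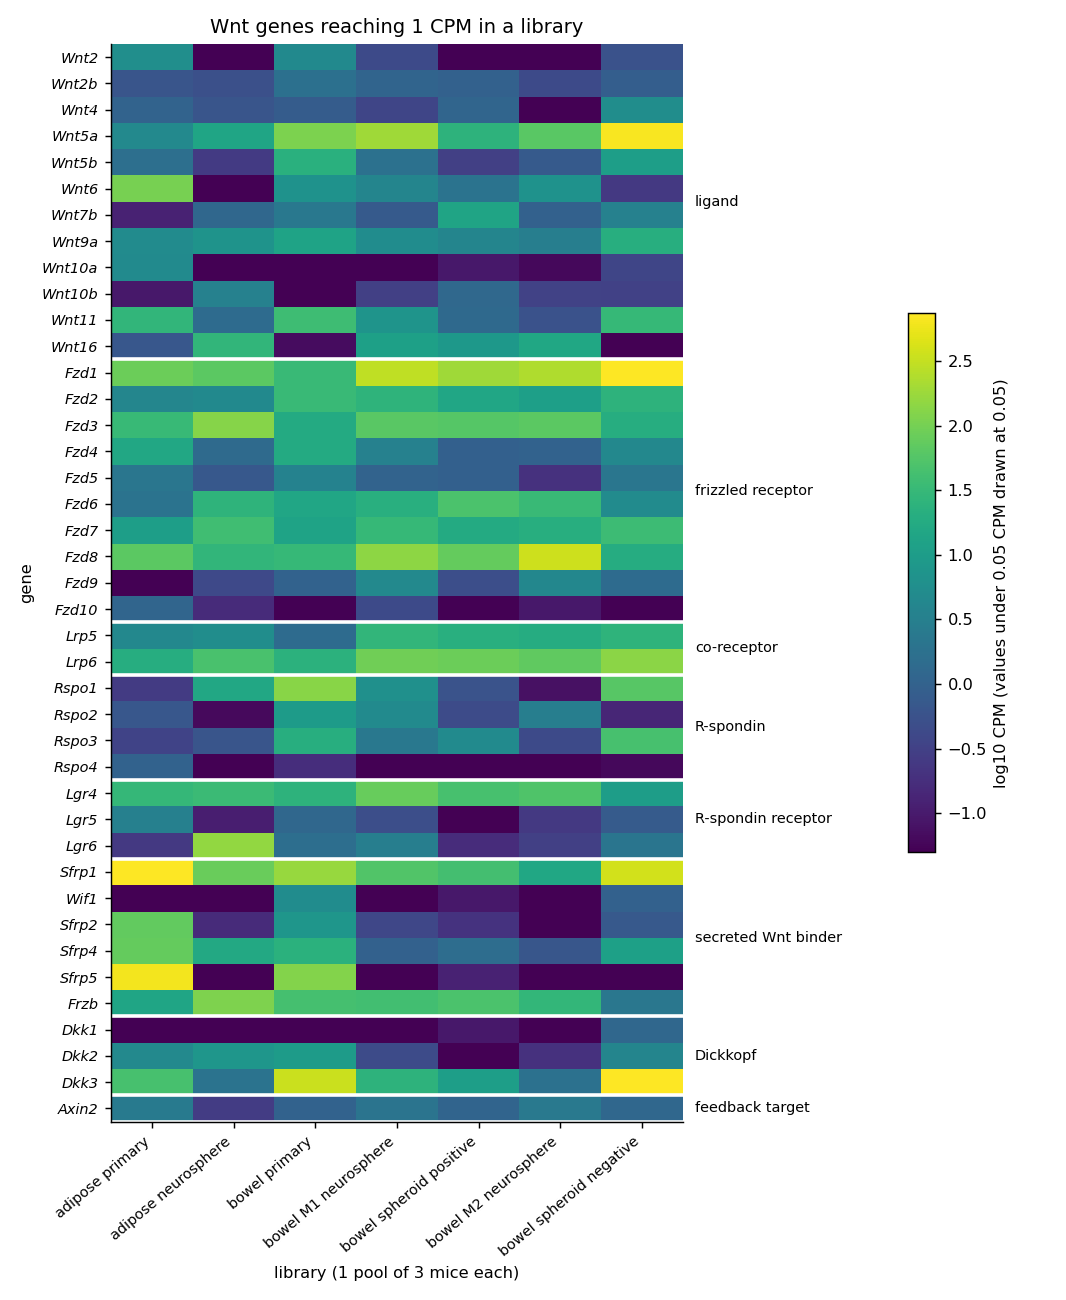
Level of each member that reached 1 CPM in a library (rows, grouped by role), by library (columns), as CPM on a log colour scale. Values under 0.05 CPM are drawn at 0.05. Frizzled and Lrp rows are filled in nearly all columns, while Sfrp5 and Sfrp2 are filled in both primary columns and near the lower end of the scale in the 5 cultured ones.

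The map of levels by library sets the receptors beside the secreted genes. 7 of the 10 frizzled genes and both co-receptors reached 10 CPM in a library, as did 7 of the 19 ligands. 17 of the 49 genes overlap another annotated gene, for example Fzd4 with Tmem135 and Wnt5b with Fbxl14, and their reads are uncertain, since whether counting used the strand was not given in the sources used here.

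The number of members called in each comparison is given here beside the same count over all genes. Between positive and negative cells of the same spheroids, 31 members were measured, of which 4 were higher and 15 lower in positive cells, where 19.1% of all measured genes were called, 6.64% higher and 12.5% lower. Their median log2 ratio was -1.70, beside 0.01 over all genes. Between primary adipose and primary bowel cells, 7 of 38 measured members were higher and 12 lower in adipose cells, beside 7.09% and 11.4% of all genes (18.5% in either direction), and the members' median was -0.28 beside 0.09. Counted only over genes at 1 CPM or more in a cultured positive library, a check added after seeing the data, 2 of 30 were higher and 11 lower, beside 13.1% of such genes in either direction.

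Between adipose neurospheres and M2 neurospheres, 7 of 27 measured members were higher and 6 lower in the adipose library, beside 5.33% and 8.71% of all genes (14.0% in either direction), with medians of 0.40 and -0.01. In adipose neurospheres against primary adipose cells, 7 of 35 were higher and 15 lower, beside 5.71% and 20.8% of all genes (26.5% in either direction), with medians of -0.84 and -0.01. The 3 bowel culture comparisons share the primary bowel library and are therefore set side by side. M1 neurospheres had 3 of 35 members higher and 15 lower, beside 6.58% and 16.3% of all genes (22.9% in either direction). M2 neurospheres had 4 of 35 higher and 18 lower, beside 5.89% and 21.0% (26.9%), and positive spheroid cells had 5 of 37 higher and 18 lower, beside 6.57% and 20.4% (27.0%). Members' medians were -1.45, -2.22 and -1.94 in that order, and those over all genes lay between -0.07 and -0.03.

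Fewer calls were made between the cultured tdTomato-positive bowel libraries. M2 neurospheres against positive spheroid cells had 3 of 26 members higher and 4 lower, beside 3.07% and 3.86% of all genes (6.94% in either direction). These libraries differ by the further 10 days and by growth after sorting, without the negative cells, and time and sorting cannot be told apart. M2 against M1 neurospheres had 0 of 28 higher and 6 lower, beside 1.2% and 7.37% of all genes (8.57% in either direction). The members' medians were -0.33 and -0.47, and those over all genes were -0.02 and -0.08. Called members made up between 21.4% and 62.9% of those measured, above the share of all genes in each of the 9 comparisons. These shares describe the libraries, over the members that passed the filter at 1 CPM.

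Among the ligands, Wnt5a was the most abundant in the bowel series and Wnt6 in primary adipose cells. Levels of different genes are compared per kilobase of exon (RPKM, from GENCODE M21 exon lengths), as a share of the summed ligand RPKM of a library. Wnt6 made up 76.0% of it in primary adipose cells and Wnt16 made up 51.5% in adipose neurospheres. Wnt5a made up 34.1% in primary bowel cells, followed by Wnt11 with 21.6% and Wnt5b with 20.0%. Wnt5a reached 72.2% in M1 neurospheres, 80.4% in negative spheroid cells, 49.0% in M2 neurospheres and 27.9% in positive spheroid cells, where Wnt7b followed with 24.2%.

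Wnt6, a canonical ligand of epithelia and somites, lies on chromosome 1 (74754342 to 74785322, GRCm38). It had 105 CPM in primary adipose cells and 6.62 CPM in primary bowel cells, a log2 ratio of 3.96 (95% counting interval 3.81 to 4.12). Adipose neurospheres held 0.0325 CPM, or 2 reads, and the log2 ratio against primary adipose cells was -10.78 (-14.85 to -9.95). The cultured bowel libraries held 3.93 CPM in M1, 6.59 CPM in M2, 1.92 CPM in positive and 0.247 CPM in negative cells. Wnt6 was thus higher in fat than in bowel before culture and lower in the adipose than in the M2 neurospheres after it, at a log2 ratio of -6.60 (-10.59 to -5.68).

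Wnt10a, a ligand of skin appendages and teeth, lies 6696 bases from Wnt6 on the same chromosome (74792019 to 74804176). It had 4.86 CPM in primary adipose cells and at most 0.371 CPM in the 6 other libraries. With 0 reads in primary bowel cells and in adipose neurospheres, it was at least 92.2-fold higher in primary adipose cells than in the former and at least 110-fold higher than in the latter, counted from a floor of 3 reads. Both neighbours were thus highest in the same library, which did not hold for the pairs Wnt10b and Wnt1 (11650 bases apart) and Wnt3a and Wnt9a (16097 bases apart). Wnt1 had at most 39 reads (0.609 CPM) and Wnt3a at most 10 reads (0.156 CPM), so these pairs can show little. Primary adipose cells also held 5 of 5 lymphocyte and dendritic markers at 1 CPM or more, most of the sum being 1473 CPM of Ccr7, and 353 CPM of 4 adipocyte markers, most of it Fabp4. In adipose neurospheres 0 of these 9 markers reached 1 CPM and the adipocyte markers Adipoq and Plin1 had 0 reads. The part of these cells in the Wnt6 and Wnt10a values was not tested.

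Wnt16, a ligand with roles in bone and in blood stem cell formation (chromosome 6, 22288178 to 22298522), was the one ligand called higher in all 4 comparisons of cultured positive cells with primary cells of their tissue. It had 0.687 CPM in primary adipose cells and 0.0693 CPM in primary bowel cells. In the cultured positive libraries it had 27.6 CPM in adipose neurospheres, 15.2 CPM in M2, 11.7 CPM in M1 and 8.39 CPM in positive spheroid cells, and negative spheroid cells held 0.0309 CPM. All 4 cultured positive libraries were above the 3 others. The log2 ratio over the primary library was 5.12 (4.75 to 5.65) in adipose and 6.99 (6.13 to 9.37) in M2 neurospheres, and it was 6.91 (5.98 to 10.89) between positive and negative cells of the same spheroids.

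Wnt5a, a ligand best known for beta-catenin independent signalling (chromosome 14, 28504543 to 28527448), had 660.2 CPM in negative and 24.6 CPM in positive spheroid cells, a log2 ratio of -4.99 (-5.06 to -4.91). M1 neurospheres held 189 CPM, primary bowel cells 111 CPM and M2 neurospheres 62.3 CPM, against 14.1 CPM in adipose neurospheres and 4.67 CPM in primary adipose cells. Both adipose libraries were below all bowel libraries. The log2 ratio of adipose to bowel was -4.59 (-4.77 to -4.43) before culture and -2.03 (-2.14 to -1.92) between the neurospheres.

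Wnt11 and Wnt5b, which also act largely through cell polarity pathways, were lower in all 4 comparisons of cultured positive with primary cells. Wnt11 had 37.3 CPM in primary bowel and 27.8 CPM in primary adipose cells, 30.9 CPM in negative spheroid cells, 7.25 CPM in M1 and between 0.567 and 1.41 CPM in the 3 remaining libraries. Wnt5b had 22.2 CPM in primary bowel cells, 11.0 CPM in negative spheroid cells and at most 1.77 CPM in the 5 others. Within the spheroids both were lower in positive cells, at log2 ratios of -4.75 (-5.11 to -4.47) for Wnt11 and -5.25 (-6.12 to -4.76) for Wnt5b. The negative cells held 16604 CPM of 6 fibroblast markers and 4100 CPM of 4 markers of interstitial cells of Cajal, most of the latter Thbs4, beside 368 and 63.4 CPM in positive cells, where none of these markers was at 0. Their part in the Wnt5a, Wnt11 and Wnt5b values was not tested.

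**Figure D2:**
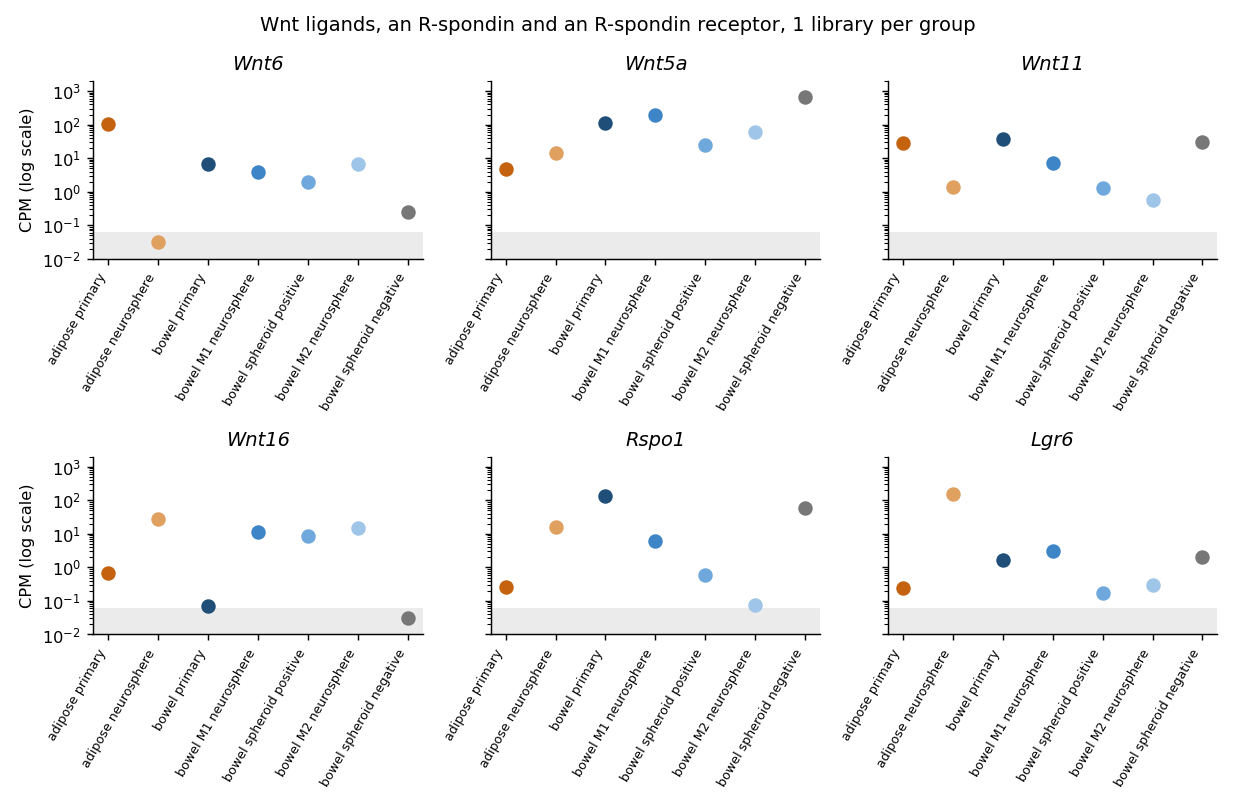
CPM (log axis) of Wnt6, Wnt5a, Wnt11, Wnt16, Rspo1 and Lgr6 in each of the 7 libraries, 1 point per library. The grey band lies at or under 3 reads, and open triangles mark 0 reads. Wnt16 points of the 4 cultured positive libraries lie between 8.39 and 27.6 CPM, above the other 3, and Wnt6 spans from 105 CPM in primary adipose cells to 0.0325 CPM in adipose neurospheres.

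The ligands described next, most of them at lower levels, are not drawn in the ligand plot. Wnt2, a ligand of mesenchyme, had 5.84 CPM in primary adipose and 4.73 CPM in primary bowel cells and at most 0.572 CPM in culture. It was at least 133-fold lower in adipose neurospheres than in primary adipose cells. Wnt10b, known for holding back fat cell formation, went from 0.0937 to 3.38 CPM between primary adipose cells and adipose neurospheres, a log2 ratio of 4.64 (3.88 to 6.49). Wnt7b, a ligand of epithelia and neurons, was highest in positive spheroid cells with 13.4 CPM and stood at 0.995 CPM in the M2 neurospheres grown on from such cells, a log2 ratio of -3.82 (-4.25 to -3.50). Wnt4 had 5.52 CPM in negative and 1.16 CPM in positive spheroid cells and 0.0306 CPM in M2 neurospheres. Wnt9a lay between 3.02 and 20.3 CPM in all 7 libraries, and Wnt2b between 0.429 and 1.75 CPM.

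The stretches before the starts of 5 of these genes are shown because the genes differ widely between primary and cultured cells (Sfrp5, Wnt6, Wnt16) or hold the motif searched (Wnt11, Wnt5b). They come from the RefSeq promoter table of GRCm38.p6, which matched 32 of the 49 members with 35 windows. 33 windows ran on into a GENCODE transcript of the gene in the stated direction, and those of Fzd1 and Fzd7 were not matched. The core of TCF/LEF sites was searched as CTTTGAT or CTTTGAA on both strands in the 250 bases before each start. These letters overlap the core read by Sox factors. It was found in 3 of 35 member windows (8.57%), those of Dkk1, Wnt11 and Wnt5b, and in 2457 of 32851 windows of all genes (7.48%). Capitals mark the motif, and each stretch ends at the outermost RefSeq start where this falls inside the window.
Sfrp5, minus strand, chr19:42202253-42202502: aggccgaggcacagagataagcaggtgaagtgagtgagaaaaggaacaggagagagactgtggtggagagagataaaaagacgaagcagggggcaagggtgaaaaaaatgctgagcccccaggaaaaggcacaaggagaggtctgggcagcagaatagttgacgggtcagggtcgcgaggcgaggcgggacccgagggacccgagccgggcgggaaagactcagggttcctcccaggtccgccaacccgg
Wnt6, plus strand, chr1:74771642-74771891: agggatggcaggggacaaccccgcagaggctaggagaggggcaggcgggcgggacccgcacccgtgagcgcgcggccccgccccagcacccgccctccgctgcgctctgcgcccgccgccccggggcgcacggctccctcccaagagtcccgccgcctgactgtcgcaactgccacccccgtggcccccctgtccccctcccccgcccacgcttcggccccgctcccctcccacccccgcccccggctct
Wnt16, plus strand, chr6:22287977-22288177: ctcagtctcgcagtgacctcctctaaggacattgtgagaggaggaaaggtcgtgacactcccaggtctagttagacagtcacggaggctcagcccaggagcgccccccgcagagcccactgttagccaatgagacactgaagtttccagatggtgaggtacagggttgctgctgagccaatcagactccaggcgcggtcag
Wnt11, plus strand, chr7:98834862-98835083: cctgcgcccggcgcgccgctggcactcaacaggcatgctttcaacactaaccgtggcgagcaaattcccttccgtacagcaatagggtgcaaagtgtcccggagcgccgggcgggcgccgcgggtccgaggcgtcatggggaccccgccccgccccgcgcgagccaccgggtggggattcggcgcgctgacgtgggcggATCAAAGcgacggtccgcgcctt
Wnt5b, minus strand, chr6:119449387-119449636: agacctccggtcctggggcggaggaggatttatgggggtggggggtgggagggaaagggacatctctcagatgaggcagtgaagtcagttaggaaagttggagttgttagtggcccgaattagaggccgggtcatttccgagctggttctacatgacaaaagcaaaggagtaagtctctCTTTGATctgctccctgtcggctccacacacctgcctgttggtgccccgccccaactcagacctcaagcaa

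The stretch before Wnt6 is 79.6% G and C and that before Sfrp5 is 59.6%. The printed stretches of Wnt6 and Wnt5b precede inner starts. They lie inside the RefSeq spans of these genes, 74754342 to 74785322 for Wnt6 and 119432531 to 119544824 for Wnt5b. In the Wnt11 stretch the motif, in the reverse orientation ATCAAAG, begins 23 bases before the printed end and 51 bases before the start that the window was built on, which lies further on. In the Wnt5b stretch it begins 71 bases before the printed end, where the window's start follows. A further start of Wnt11 and 2 further starts of Wnt5b had no match in their windows. These letters are a description of the windows, and no binding was measured.

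Of the frizzled receptors, Fzd1 was the most abundant per length in 5 of the 7 libraries, Fzd2 in primary bowel cells and Fzd8 in M2 neurospheres. The summed frizzled RPKM was 33.0 in primary bowel and 40.8 in primary adipose cells, 46.7 in adipose neurospheres, and 80.7, 121 and 138 in positive spheroid cells, M1 and M2 neurospheres. Negative spheroid cells stood highest with 198, of which Fzd1 made up 88.8%.

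Fzd1 (chromosome 5, 4753839 to 4758216) had 33.0 CPM in primary bowel cells, against 298 CPM in M1, 234 CPM in M2 and 187 CPM in positive spheroid cells. Negative spheroid cells held 739 CPM, primary adipose cells 85.7 CPM and adipose neurospheres 67.0 CPM. It was called higher in each bowel culture, at log2 ratios of 2.71, 2.54 and 2.33 in that order, and its ratio in adipose culture was -0.50 (not called). In the spheroids it was lower in positive cells at -2.22 (-2.25 to -2.19), a call that ended when libraries were scaled by plain totals.

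Fzd8 (chromosome 18, 9212856 to 9216201) differed between the neurospheres of both tissues. It had 361 CPM in M2 neurospheres, 142 CPM in M1, 77.5 CPM in positive and 19.2 CPM in negative spheroid cells, and 30.8 CPM in primary bowel cells. Adipose cells held 65.6 CPM before and 28.1 CPM after culture. M2 neurospheres were above the other 6 libraries, at a log2 ratio of 3.26 (3.20 to 3.34) over primary bowel cells, 2.11 (2.06 to 2.15) over positive spheroid cells, and -3.56 (-3.63 to -3.49) for adipose over M2 neurospheres. Fzd9, a receptor of neural tissue, had 4.63 CPM in M1 and 4.30 CPM in M2 neurospheres, at most 1.42 CPM in the others and 0 reads in primary adipose cells.

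Fzd6, known for polarity of hair and neural tube cells, had 48.2 CPM in positive and 5.09 CPM in negative spheroid cells, a log2 ratio of 2.99 (2.84 to 3.17). It had 1.91 CPM in primary adipose cells and 25.9 CPM in adipose neurospheres, a log2 ratio of 3.60 (3.35 to 3.89), while primary bowel cells already held 14.5 CPM. Fzd4, the receptor of Norrin, went the other way. It had 15.5 and 17.9 CPM in primary adipose and bowel cells and between 0.944 and 4.38 CPM in the 5 cultured libraries, and was called lower in all 4 culture comparisons. The sum of the endothelial markers given above was also lower in each culture than in primary cells. Kdr, 1 of these markers, was not lower in 2 bowel cultures, with 18.6 CPM in primary bowel cells, 19.5 CPM in M1 and 21.5 CPM in M2. It made up most of the sums in M1 and M2. The part of endothelial cells in the Fzd4 values was not tested.

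Fzd3, needed for axon growth, stood at 131 CPM in adipose neurospheres, at 58.9 to 66.1 CPM in the cultured positive bowel libraries and at 18.0 to 32.1 CPM in the 3 others. It was not called in any of the 9 comparisons, and the ratio in adipose culture was 1.88. Fzd7 ranged from 10.8 to 39.0 CPM and was not called either. Fzd2 had 4.06 CPM in primary adipose and 33.4 CPM in primary bowel cells (-3.05, -3.25 to -2.87), and Fzd5 had at most 3.50 CPM. Fzd10 reached 1.16 CPM in primary adipose cells, with 0 reads in primary bowel cells.

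**Figure D3:**
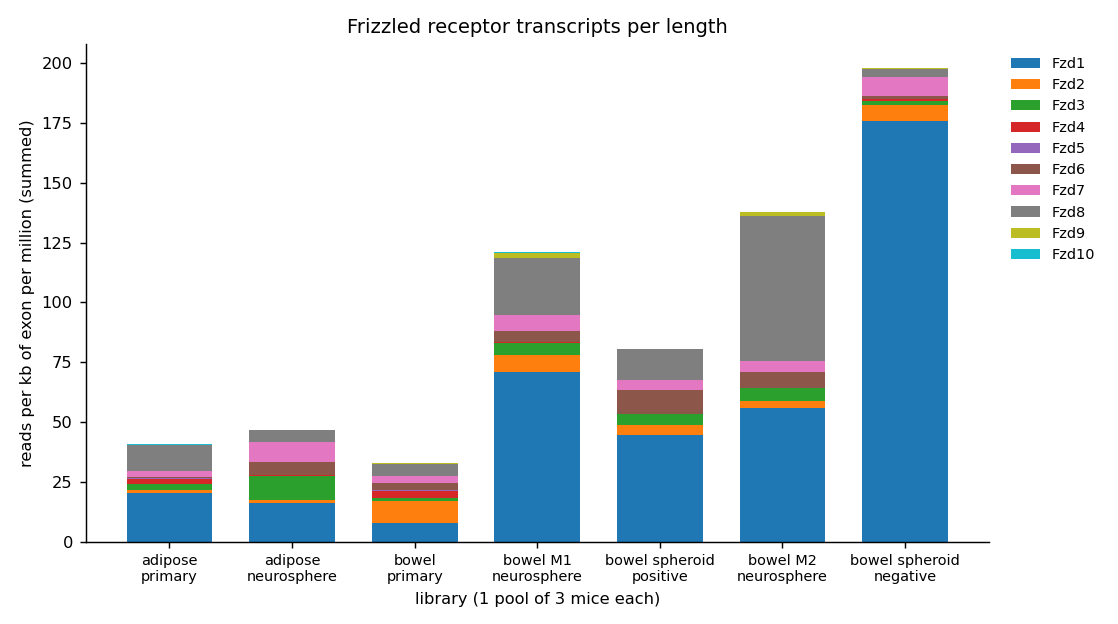
RPKM of the 10 frizzled receptors in each of the 7 libraries, as stacked bars with 1 colour per gene. The bar of negative spheroid cells is the highest, at a sum of 198, and most of it is Fzd1. Fzd8 is the largest part of the bar of M2 neurospheres.

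The co-receptors are not drawn in the frizzled plot. Lrp5 had 1.42 CPM in primary bowel cells and between 19.0 and 28.1 CPM in the 4 cultured bowel libraries, with 4.34 and 5.60 CPM in adipose cells before and after culture. Its log2 ratio over primary bowel cells was 3.82 (3.52 to 4.18) in M1 and 3.43 (3.13 to 3.80) in M2 neurospheres. Lrp6 ranged from 20.1 to 138 CPM, was the more abundant of both per length in every library, and was not called in any comparison.

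The R-spondins and their receptors held the 2 members whose culture ratios were called in opposite directions in both tissues. Rspo1, a niche factor of stem cells (chromosome 4, 124986401 to 125009102), had 134 CPM in primary bowel cells and 0.266 CPM in primary adipose cells, a log2 ratio of -8.83 (-9.78 to -8.32) for adipose over bowel. After culture, adipose neurospheres held 16.1 CPM and M2 neurospheres 0.0766 CPM, or 5 reads, a log2 ratio of 7.32 (6.60 to 9.46). The order of the tissues was thus reversed. M1 neurospheres held 6.23 CPM, positive spheroid cells 0.588 CPM and negative spheroid cells 61.0 CPM. The culture ratio was 5.62 (5.09 to 6.56) in adipose cells and -10.51 (-12.68 to -9.84) in M2 neurospheres.

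Lgr6, a receptor for R-spondins and a marker of skin stem cells (chromosome 1, 134983300 to 135105374), was high in 1 library. It had 156 CPM in adipose neurospheres and between 0.170 and 3.01 CPM in the other 6, of which primary adipose cells held 0.250 CPM, or 16 reads. The culture ratio was 8.97 (8.44 to 9.94) in adipose cells and -2.56 (-3.47 to -1.99) in M2 neurospheres. In adipose neurospheres Lgr6 made up 79.4% of the summed Lgr RPKM, while Lgr4 made up at least 82.2% in each of the other 6 libraries. Lgr4, the widely used receptor of the family, ranged from 10.4 to 78.9 CPM and was not called in any comparison.

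Lgr5, the marker of intestinal crypt stem cells, had 3.23 CPM in primary adipose cells, 1.21 CPM in primary bowel cells and between 0.0464 and 0.789 CPM in culture. Rspo3 had 46.0 CPM in negative spheroid cells, 20.8 CPM in primary bowel cells, 4.87 CPM in positive spheroid cells and between 0.344 and 2.37 CPM in the 4 others. Rspo2 had 9.73 CPM in primary bowel cells, 4.86 CPM in M1, 3.05 CPM in M2 and under 1 CPM elsewhere. It was the 1 R-spondin called higher in M2 neurospheres than in positive spheroid cells, at a log2 ratio of 2.57 (2.08 to 3.27), while Rspo3 was lower at -3.52 (-4.23 to -3.06). Rspo4 reached 1.03 CPM in primary adipose cells and had 0 reads in 4 libraries.

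Rspo1, Rspo2 and Rspo3 were thus highest in primary bowel cells or in negative spheroid cells. Summed fibroblast markers were 3443 CPM in primary bowel cells and 16604 CPM in negative spheroid cells, and 3729 CPM in primary adipose cells, where Rspo1, Rspo2 and Rspo3 each stayed under 1 CPM. Adipose neurospheres, with 16.1 CPM of Rspo1, held 1112 CPM of these markers, and M2 neurospheres 53.4 CPM. Most of the adipose sum was Col1a2 (770 CPM) and Col1a1 (325 CPM). Dcn had 11.3 CPM in adipose against 11.0 CPM in M2 neurospheres, Pdgfra 1.98 against 2.42 CPM and Lum 3.17 against 7.64 CPM. The part of such cells in the R-spondin values was not tested.

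Most secreted Wnt binders were lower in cultured positive cells than in primary cells of the same tissue. Their summed RPKM was 543 in primary adipose cells and 129 in primary bowel cells, against 58.3 in adipose neurospheres, 25.0 in M1, 25.4 in positive spheroid cells and 12.7 in M2 neurospheres. Negative spheroid cells held 92.1. In each bowel culture comparison 5 of the 6 binders were lower, all but Frzb, beside 16.3%, 21.0% and 20.4% of all genes in M1, M2 and positive spheroid cells, although scaling by plain totals ended the call of Sfrp1 in M1 neurospheres and in positive spheroid cells. In adipose culture 4 of the 5 measured were lower, beside 20.8% of all genes, and Frzb was higher.

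Sfrp5, an inhibitor known in fat tissue (chromosome 19, 42197971 to 42202252), had 614 CPM in primary adipose cells and 124 CPM in primary bowel cells. Adipose neurospheres held 0 reads, and the 4 cultured bowel libraries held between 0.0306 and 0.124 CPM. Both primary libraries were far above all cultured ones, tdTomato-negative cells included. The level was at least 13944-fold lower in adipose neurospheres than in primary adipose cells, and the log2 ratio of M2 neurospheres (2 reads) to primary bowel cells was -11.16 (-15.32 to -10.42).

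Sfrp2 was likewise highest in primary adipose cells with 73.0 CPM, followed by primary bowel cells with 7.85 CPM, and had at most 0.742 CPM in culture, in negative spheroid cells. Wif1, another of the secreted Wnt binders, had 5.25 CPM in primary bowel cells and under 1 CPM in every other library. Primary bowel cells held 1319 CPM of 5 mesothelial markers, beside 12.7 CPM in primary adipose cells and 0.199 CPM in M2 neurospheres, where 0 of the 5 reached 1 CPM and Upk3b had 0 reads. Adipocyte markers summed to 353 CPM in primary adipose cells, 93.1 CPM in primary bowel cells and at most 18.2 CPM in culture. Most of each sum was Fabp4. Adipoq had 3.76 CPM in primary adipose and 4.33 CPM in primary bowel cells, and Plin1 had 3.09 and 1.18 CPM. The part of mesothelial, fat, muscle or fibroblast cells in the levels of the secreted binders was not tested.

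Sfrp1, a binder made by many mesenchymal cells, had 713 CPM in primary adipose, 168 CPM in primary bowel and 384 CPM in negative spheroid cells. The cultured positive libraries were lower, with 82.5 CPM in adipose neurospheres, 53.8 CPM in M1, 42.7 CPM in positive spheroid cells and 15.1 CPM in M2. Log2 ratios to the primary library were -3.26 (-3.30 to -3.22) in adipose and -3.76 (-3.86 to -3.67) in M2 neurospheres, and in M1 neurospheres and positive spheroid cells they were -2.11 and -2.15. Sfrp4 had 77.0 and 23.1 CPM in primary adipose and bowel cells, 16.4 CPM in adipose neurospheres, 11.6 CPM in negative spheroid cells and between 0.658 and 1.55 CPM in the 3 others.

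Frzb, a binder first known from cartilage, differed from the other 5. It had 115 CPM in adipose neurospheres against 13.9 CPM in primary adipose cells, a log2 ratio of 2.89 (2.79 to 2.99). In the bowel it had 42.9 CPM in primary cells, 39.8 CPM in M1, 48.9 CPM in positive spheroid cells and 29.1 CPM in M2, and was not called in a bowel culture comparison. Negative spheroid cells held 2.24 CPM, so that positive cells of the same spheroids were higher at 4.19 (3.96 to 4.45). Frzb thereby made up 60.7% of the summed binder RPKM in adipose neurospheres, 71.1% in M2 neurospheres and 59.4% in positive spheroid cells, and in M1 neurospheres it made up 49.1%, as did Sfrp1. In primary cells Sfrp5 made up 59.5% (adipose) and 50.9% (bowel).

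**Figure D4:**
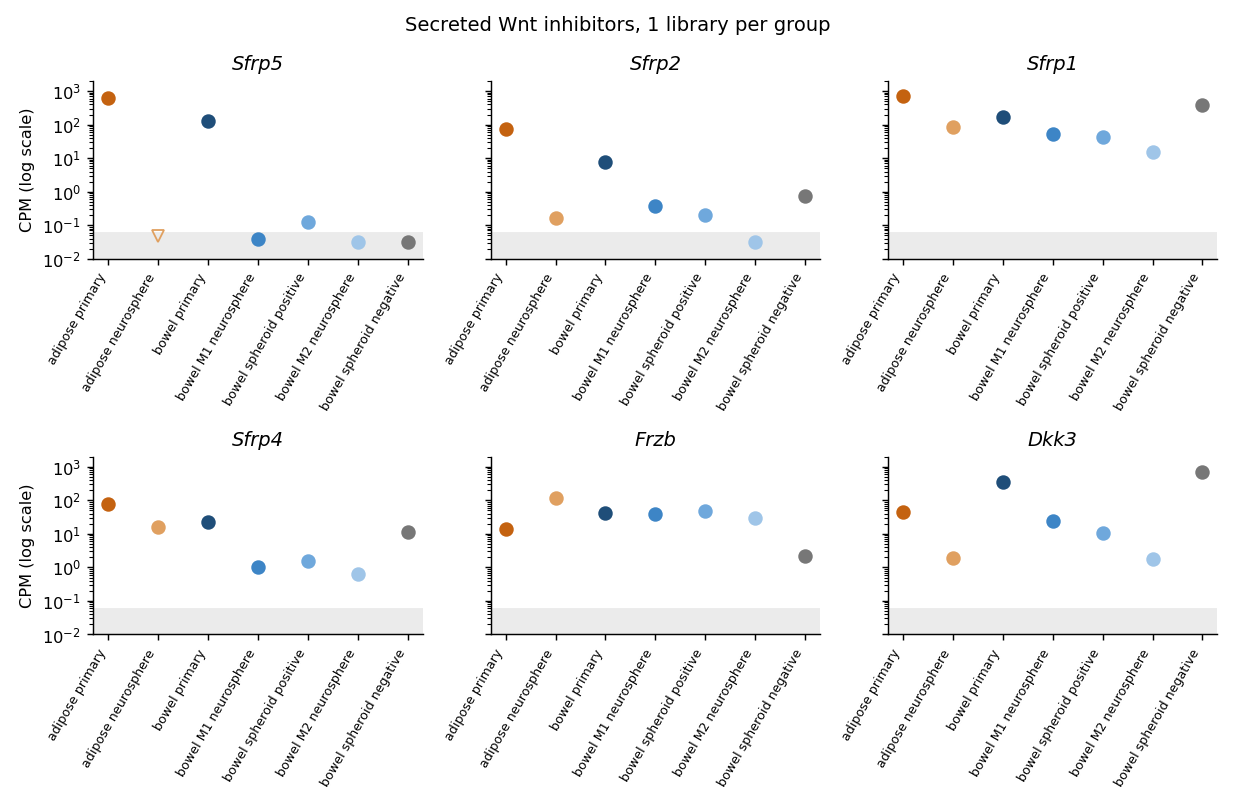
CPM (log axis) of Sfrp5, Sfrp2, Sfrp1, Sfrp4, Frzb and Dkk3 in each of the 7 libraries, 1 point per library. The grey band lies at or under 3 reads, and open triangles mark 0 reads. Sfrp5 lies at 614 and 124 CPM in the primary libraries and at or under 0.124 CPM in the 5 cultured ones, while the lowest point of Frzb is that of negative spheroid cells.

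Of the Dickkopf genes, only Dkk3 is drawn in the same plot. Dkk3, the divergent member whose place in Wnt signalling is debated (chromosome 7, 112116019 to 112159482), had 715 CPM in negative spheroid cells and 348 CPM in primary bowel cells. It had 46.0 CPM in primary adipose cells, 24.6 CPM in M1, 10.9 CPM in positive spheroid cells, 1.96 CPM in adipose neurospheres and 1.82 CPM in M2. It was called in 8 of the 9 comparisons, all but that of both 2-stage neurospheres, where the log2 ratio was 0.22. In the spheroids it was lower in positive cells at -6.27 (-6.38 to -6.17), and in M2 neurospheres it was lower than in primary bowel cells at -7.83 (-8.13 to -7.60).

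Dkk2, an Lrp-binding inhibitor, was lower in each of the 3 bowel culture comparisons and was not called in adipose culture. It had 9.88 CPM in primary bowel cells, 4.0 CPM in negative spheroid cells and between 0.0464 and 0.443 CPM in the cultured positive bowel libraries. Adipose cells held 4.55 CPM before and 7.66 CPM after culture, a log2 ratio of 0.60. Adipose neurospheres were higher than M2 neurospheres at 5.17 (4.60 to 6.31). Dkk1, the best known inhibitor of the family, reached 1.22 CPM in negative spheroid cells and at most 0.0929 CPM in the others.

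Axin2, a direct target of beta-catenin that feeds back on the pathway (chromosome 11, 108917828 to 108950783), had low levels throughout. It had 2.50 CPM in primary adipose cells and 0.276 CPM, or 17 reads, in adipose neurospheres, a log2 ratio of -3.18 (-4.14 to -2.60). Bowel libraries held 1.02 CPM in primary cells, 2.00 CPM in M1, 2.39 CPM in M2, 1.11 CPM in positive and 1.24 CPM in negative spheroid cells. None of the bowel culture ratios was called, and adipose neurospheres were lower than M2 neurospheres at -2.86 (-3.81 to -2.27).

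The culture ratios of adipose neurospheres and M2 neurospheres share no library and both followed the same 2 stages. 30 members were measured in both. 13 were called in both, beside 14.5% of the 13895 genes measured in both. 10 were lower in both, beside 11.9% of genes: Dkk3, Fzd4, Lgr5, Sfrp1, Sfrp2, Sfrp4, Sfrp5, Wnt2, Wnt5b and Wnt11. 1 was higher in both, Wnt16, beside 1.45% of genes. 2 were called in opposite directions, beside 1.16% of genes: Lgr6 and Rspo1 were higher in adipose neurospheres and lower in M2 neurospheres than in primary cells. In M1 neurospheres the ratio of Lgr6 to primary bowel cells was 0.42 (not called), and its call in M2 ended with a filter at 5 CPM. The differences of the culture ratios were 11.54 for Lgr6 and 16.13 for Rspo1 on the log2 scale, with no replicate to test them.

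**Figure D5:**
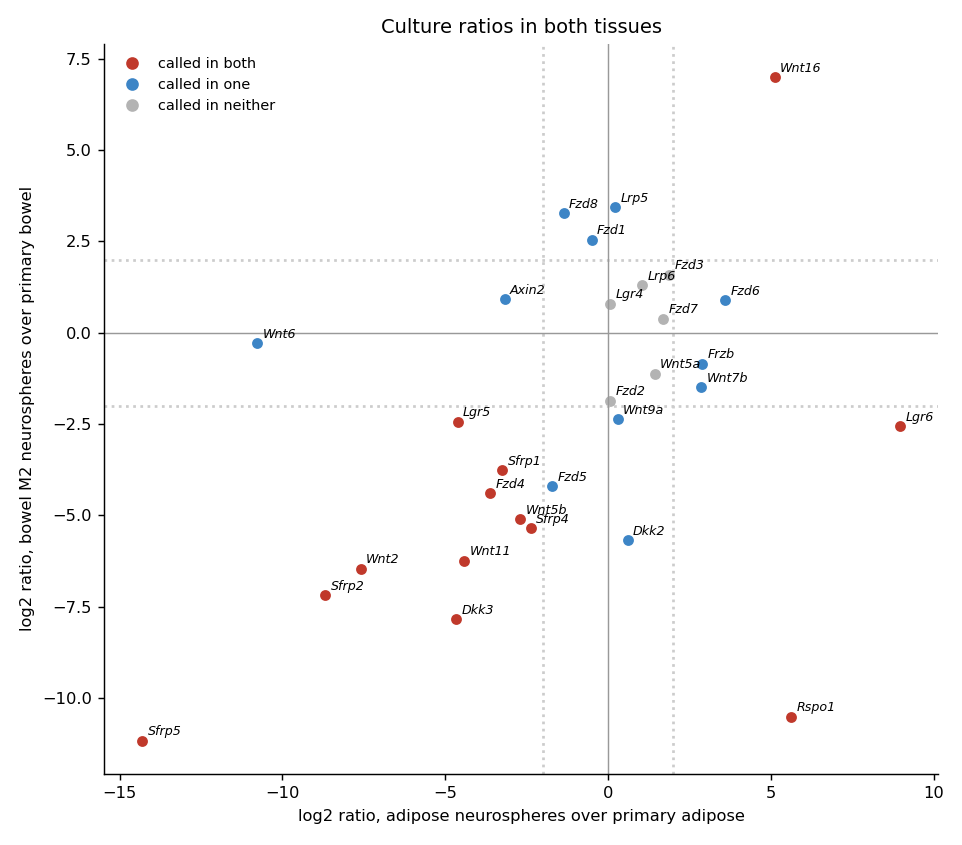
Log2 ratio of neurospheres to primary cells for adipose (adipose neurospheres) and bowel (M2 neurospheres), 1 point per member measured in both, with red for genes called in both tissues, blue for 1 tissue and grey for neither, and dotted lines at 4-fold. Sfrp5 lies farthest to the lower left, Wnt16 to the upper right, and Lgr6 and Rspo1 lie above 0 in adipose and below 0 in bowel.

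The plot of both culture ratios also holds members called in 1 tissue. Wnt6 and Axin2 were lower in adipose culture, and in the M2 comparison their ratios were -0.29 and 0.92 (not called). Fzd6, Frzb and Wnt7b were higher in adipose culture, with M2 ratios of 0.89, -0.85 and -1.49 (not called). Fzd1, Fzd8 and Lrp5 were higher in M2 neurospheres, with adipose ratios of -0.50, -1.37 and 0.22 (not called). Whether these ratios differ between tissues was not tested.

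With other bowel libraries in the comparison of neurospheres between tissues, the calls for Lgr6, Sfrp4, Dkk2 and Wnt6 remained. With M1 neurospheres in place of M2, Frzb, Rspo1 and Sfrp1 were no longer called and Fzd2, Lrp5, Wnt5b, Wnt11 and Dkk3 were. With positive spheroid cells, 8 members were called, and Axin2, Wnt5a, Rspo2, Wnt10b, Fzd8, Frzb, Fzd9 and Sfrp1 were no longer among them.

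70 other genes of the pathway were counted by the same rule, in lists of secretion, cytoplasmic, nuclear, feedback, polarity and extracellular genes. Between positive and negative spheroid cells 6 of 65 measured were higher and 12 lower in positive cells, beside 6.64% and 12.5% of all genes. The lowest ratio was that of Ror2, a receptor for Wnt5a, with 1.10 against 100.2 CPM (-6.71, -7.11 to -6.42). Notum, an enzyme that removes the lipid from Wnt proteins, had 0.851 against 38.7 CPM (-5.69). The highest was that of Ccnd1, the cyclin D1 gene, with 355 against 7.62 CPM (5.29, 5.17 to 5.43). 14 of 14 cytoplasmic genes, which include the beta-catenin gene and its kinases, were measured and 0 were called in this comparison.

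Between the primary libraries 7 of 66 were higher in adipose cells and 3 lower, beside 7.09% and 11.4% of all genes. Lef1, a nuclear partner of beta-catenin, had 18.5 against 0.364 CPM (5.53, 5.03 to 6.34), and Rnf43, a feedback enzyme that removes frizzled receptors, 8.34 against 0.555 CPM (3.81). Tcf7, a nuclear factor also used by T cells, was higher at 3.63. The 3 lower genes were Notum with 0.0312 against 4.09 CPM (-6.02, -10.11 to -5.18, on 2 reads in adipose cells), the feedback inhibitor Nkd1 with 37.0 against 171 CPM (-2.22) and Ror2 with 4.64 against 20.4 CPM (-2.15). The lymphocyte and dendritic markers given above differed between these libraries as well (1649 against 5.46 CPM), and their part in the Lef1 and Tcf7 values was not tested.

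Between the neurospheres of both tissues 3 of 62 were higher in adipose and 10 lower, beside 5.33% and 8.71% of all genes. Gpc3, a cell surface glypican, had 0.162 against 218 CPM in M2 (-10.02, -11.33 to -9.39). Lef1 had 27.6 against 0.919 CPM (4.98, 4.66 to 5.43), so it was higher in adipose cells before culture and, against M2, after it. M2 was however called lower for Lef1 than M1 neurospheres and than positive spheroid cells. Both of those were called higher than primary bowel cells. Adipose neurospheres were not compared with either of them for the pathway genes. In adipose culture 8 of 67 pathway genes were higher and 16 lower, beside 5.71% and 20.8% of all genes. In M2 neurospheres 7 of 63 were higher and 8 lower than in primary bowel cells, beside 5.89% and 21.0%. Sostdc1, a secreted inhibitor of Wnt and BMP signals, went from 464 to 0.422 CPM in adipose culture (-10.14, -10.86 to -9.70) and from 198 to 0.383 CPM in M2 (-9.17, -9.93 to -8.74). Ndp, the gene of Norrin, was higher at 6.76 in adipose (3 reads in the primary cells, 5.92 to 9.76) and at 4.96 (4.37 to 5.95) in M2 neurospheres. M1 neurospheres had 9 of 64 higher and 5 lower than primary bowel cells (6.58% and 16.3% of all genes), and positive spheroid cells 11 of 63 higher and 10 lower (6.57% and 20.4%). M2 neurospheres had 3 of 63 higher and 2 lower than positive spheroid cells (3.07% and 3.86%), and 1 of 63 higher and 5 lower than M1 neurospheres (1.2% and 7.37%).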

How the data were processed

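RNA was amplified with SMART-Seq v4 and tagged with Nextera XT, per the labels' protocols. The authors deposited 1 table of CPM by Entrez gene. The tools were bcl2fastq 2.17, HISAT and featureCounts and the genome mm10, per the submitters' processing notes. Their settings and the annotation were not given in the sources used here.

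Every deposited CPM was a whole multiple of 1 read (100% within 0.05 read), so whole reads were recovered. With 1 library per group a count test cannot be run, and no p-value is given. Symbols and coordinates are those of RefSeq on GRCm38, which mm10 names too (25275 of 27179 identifiers matched; the rest held between 0.222% and 0.351% of reads). Exon lengths came from GENCODE M21.

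Libraries were scaled by TMM (edgeR 4.0.16, R 4.3.3) over 16461 genes that reached 1 CPM anywhere. Log2 ratios add 2 prior reads, so those of low genes are understated. The size rule asks for 4-fold with a 95% exact conditional binomial interval beyond 2-fold. Printed CPM are not rescaled. Against 0 reads, bounds use 3 reads per library (0.0459 to 0.0578 CPM).

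Members were all symbols matching the stated names. The other pathway genes are named only where the size rule was passed, at most the 5 highest and 5 lowest of a comparison. Members, lists and comparisons were chosen with earlier results of these data known. Alternatives were plain totals, DESeq2 1.42.0 size factors, a prior of 0.5, filters of none or 5 CPM, rules of 2-fold and 8-fold, and other bowel libraries. The ratio, interval and size rule were run on simulated reads of the spheroid comparison. These reads held counting error only and were scaled by plain totals. Read recovery, TMM scaling and variation between pools were thus not tested. Software was Python 3.11.15 with pandas 2.3.3, numpy 2.4.6, matplotlib 3.10.9 and scipy 1.17.1.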

Additional observations from a re-analysis of the deposited data

Results flagged for a closer look

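2 members were called in opposite directions by the culture comparison in both tissues, and no replicate was there to test the difference. Lgr6 was higher in adipose neurospheres than in primary adipose cells (log2 ratio 8.97) and lower in M2 neurospheres than in primary bowel cells (-2.56), a difference of 11.54 that was not tested. In M1 neurospheres its ratio to primary bowel cells was 0.42 (not called). Rspo1 had log2 ratios of 5.62 and -10.51, a difference of 16.13 that was not tested either.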

How the results depend on the processing

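No paired analysis was possible because each group has 1 library. No replicate could be left out for the same reason, so every difference may belong to a single library or pool of mice. With a 2-fold rule the members called numbered 29 between the primary libraries (19 with the 4-fold rule), 20 between adipose and M2 neurospheres (13), 28 in M1 neurospheres against primary bowel cells (18), 13 in M2 neurospheres against positive spheroid cells (7) and 13 in M2 against M1 neurospheres (6). With an 8-fold rule the last 2 counts were 3 and 3, and with a filter at 5 CPM they were also 3 and 3, while that of adipose culture was 14 (22). With positive spheroid cells as the bowel library, 8 members were called between the neurospheres (13). The other alternatives kept these counts within 1.5 times. Of 149 calls over the 9 comparisons, plain totals ended 8 and added 6, and DESeq2 size factors changed 0. Plain totals moved the median of all genes by up to 0.46 on the log2 scale, in M1 neurospheres against primary bowel cells. None of the 149 calls had a ratio of the other direction under the alternatives run. Ratios of members that were not called were not checked for direction. Depth limits the genes near 1 CPM, whose counting intervals are the widest.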
